A study of Homo sapiens with 4 samples.

Results

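The genes described here encode proteins that recognise the branch site and the 3′ splice site of introns: U2AF1, U2AF2, SF3A1, SF3A2, SF3A3, SF3B1, SF3B2, SF3B3 and PUF60. Their own splicing was measured in 293T cells, an established human embryonic kidney line. Members are the rows of a skipped exon table that carry 1 of these 9 gene symbols, 73 events in all, where an event is a middle exon that is either kept or skipped between 2 flanking exons. Events with a mean of at least 20 junction reads (reads that span a splice junction) over the 4 libraries were used. This left 70 of the 54503 events of that depth in the series, on 55 distinct exons of 8 genes. SF3A2 gave no event and is not analysed here. Of the 4 libraries, labelled as biological replicates, 2 came from cells given 70 nM of a gapmer antisense oligonucleotide (ASO) against the small nucleolar RNA SNORD89, and 2 from cells whose treatment is labelled none. A control ASO is not named. The labels carry the same transfection text for both groups, so they do not tell whether untreated cells received the lipid reagent. The medium was changed after 24 hours, and poly(A) RNA was taken at 48 hours. The table numbers its sample sets and does not say which is the treated one, so they are called the first and the second set, with libraries 1 and 2 in the table's order.

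The U2 small nuclear ribonucleoprotein (U2 snRNP) pairs with the branch site, whose adenosine attacks the 5′ splice site in the first step of splicing. U2AF binds before it, with the large subunit U2AF2 on the polypyrimidine tract and the small subunit U2AF1 on the AG at the end of the intron. PUF60 is a relative of U2AF2 that also binds uridine-rich tracts, and the SF3A and SF3B complexes are protein parts of U2 snRNP that hold it on the branch site. Many splicing factor genes carry exons whose inclusion brings in a stop codon, and such mRNAs are usually degraded by nonsense-mediated decay.

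Inclusion levels of these exons differed little between the sets. A call needed a false discovery rate (FDR) under 0.05 in the authors' deposited table and an inclusion level, the share of the form that keeps the exon, at least 0.1 apart. None of the 70 events was called, where 2.71% of all tested events were. These genes are read deeply, and deep events were hardly ever called: 63 of the 70 had a mean of at least 500 reads, a depth at which 6 of 13644 events in the series were called. At a mean of at least 1000 reads, which 52 of the 70 reached, the count was 0 of 7001. The rule itself also limits calls to partly included exons. With reads in every library, set means cannot lie 0.1 apart at a mean level under 0.05 or above 0.95. Of the 1477 calls, 1474 were at events between these levels, or 11.1% of 13318 such events. Only 6 of the 70 events were of that kind, so the others could not be called at any depth.

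The authors' deposited table put 2 of the 70 events under an FDR of 0.05 regardless of size, beside 5.72% of all events, and 3 under an unadjusted p of 0.05, beside 14.3%. With a quasi-binomial model, whose error includes the spread between libraries, 0 events passed after adjustment and 2 had an unadjusted p under 0.05, against 0.00183% and 3.1% of all events. With limma the counts were likewise 0 and 2, against 0% and 4.87%. A count of 0 in these models does not show that no exon changed. The median absolute difference between set means was 0.00156 for the 70 events and 0.0114 for all tested events. It was under 0.025 in 69 of the 70, or 98.6%, and in 68.6% of all tested events. The groups were not matched for depth or level in this comparison. Their median depth was 1439 reads for the 70 and 190 for all tested events. A mean level above 0.95 was found in 81.4% and 66.1% of them.

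Junction reads per library ranged from 38613055 to 43929373. Library 2 of the second set stood apart, where 3280 events of the table were without reads, compared with 513 to 624 elsewhere. On the 57 events described here with a mean level above 0.95, that library lacked any skipping read in 38, against 22 to 25 in the other libraries. Its skipping reads summed over events to 202, against 157 to 180. Events with a common skipping junction repeat the same reads, so these sums do not rank the libraries. All intervals below are 95% Wilson intervals and cover counting error only. Positions are the table's, 1-based, in hg19, the build named in the submitters' processing notes.

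U2AF1 (ENSG00000160201, minus strand of chromosome 21) has a pair of exons of 67 nt that are used as alternatives to each other. The one that comes first in the mRNA, called the earlier exon, lies at chr21:44521476-44521542 and is fully coding in transcript U2AF1-202 of GENCODE release 29. The later exon lies at chr21:44520563-44520629 and is fully coding in U2AF1-201. They are printed 5′ to 3′ from the release 29 transcripts to show how alike they are, with capitals at the 23 positions where they differ. The other 44 bases, or 65.7%, are identical.
U2AF1 earlier exon: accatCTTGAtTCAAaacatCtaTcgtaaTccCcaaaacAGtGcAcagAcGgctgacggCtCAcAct
U2AF1 later exon: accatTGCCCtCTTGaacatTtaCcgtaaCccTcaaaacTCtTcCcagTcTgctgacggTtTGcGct
The length is not a multiple of 3, so keeping or skipping both shifts the reading frame. Transcripts U2AF1-203, U2AF1-205 and U2AF1-206 hold both. In U2AF1-206, annotated as a target of nonsense-mediated decay, 26 bases of the later exon are coding. In U2AF1-203, annotated as protein coding, and U2AF1-205, annotated as a retained intron, neither exon has coding bases.

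Between the same flanking exons, of 88 nt upstream and 50 nt downstream, the later exon had the larger share of reads in every library. There, libraries 1 and 2 of the first set held 3565 and 3846 reads for it, and those of the second set 5048 and 4705. Reads for the earlier exon numbered 1452 and 1522, then 2083 and 1728. The later exon's share was thus 71.1% (69.8 to 72.3%) and 71.6% (70.4 to 72.8%), then 70.8% (69.7 to 71.8%) and 73.1% (72.0 to 74.2%). Both extremes fell in the second set, so the sets overlapped. Their means were 71.4% ± 0.416 (SD, n = 2) and 72.0% ± 1.66 (SD, n = 2), a difference of -0.611 percentage points. An exact two-sided permutation test over the 4 libraries gave p = 1, where 0.333 is the smallest p the design allows.

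The share depended on which side of the exons was read. Where joining the earlier exon directly to the 50-nt exon was the alternative, the later exon had 52.6%, 49.4%, 48.2% and 52.5% of the reads, listed by library with the first set first. Where joining the 88-nt exon directly to the later exon was set against the earlier exon, the later exon had 82.0%, 83.0%, 82.4% and 84.6%. Intervals ran from 46.3 to 54.8% on the downstream side and from 80.6 to 85.7% on the upstream side. Reads joining the pair to each other count for the later exon in the former event and for the earlier exon in the latter, which brings the sides closer. The gap appeared in all 4 libraries, the sets overlapped on each side, and its cause was not tested.

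**Figure D1:**
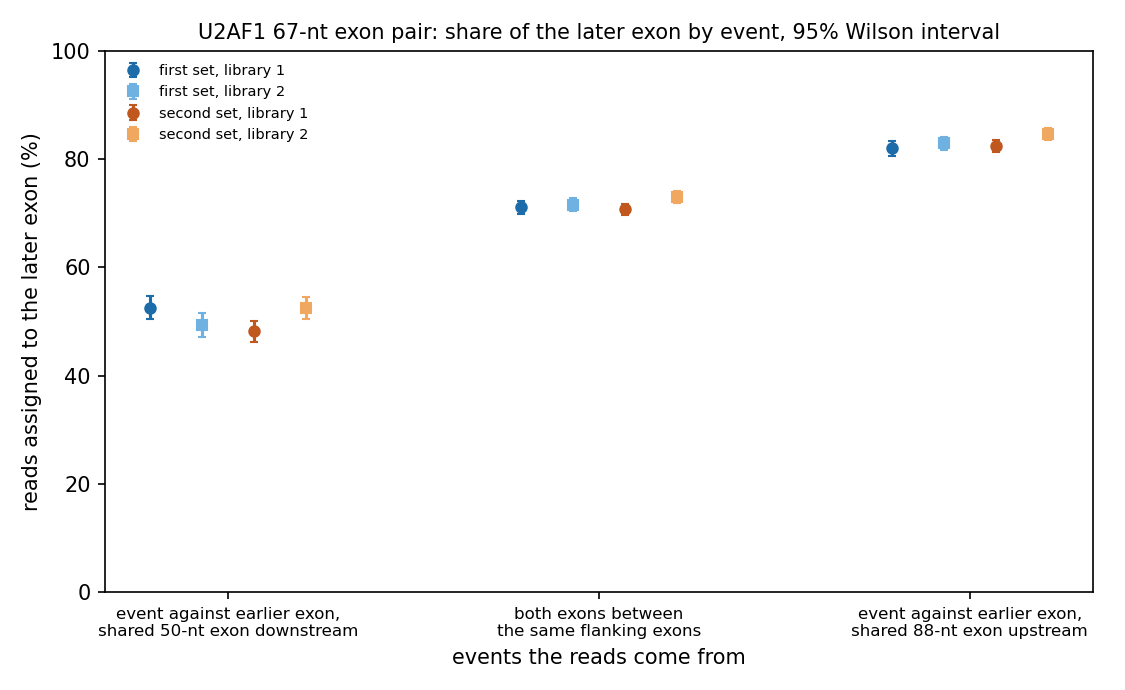
Share of junction reads assigned to the later of the alternative 67-nt exons of U2AF1 (y axis, %), per library with its 95% Wilson interval, by the events the reads come from (x axis). Libraries lie close together within a column, at 48.2 to 52.6% on the downstream side, 70.8 to 73.1% between common flanks and 82.0 to 84.6% on the upstream side.

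Inclusion levels divide reads by the length of each form. With the earlier exon as a flank, the later exon stood at 0.434, 0.402, 0.391 and 0.433, a difference of 0.00597 (the authors' deposited table gave an FDR of 1, and the quasi-binomial model an adjusted p of 0.890). With the later exon as a flank, the earlier exon stood at 0.131, 0.124, 0.128 and 0.111, a difference of 0.00786 (FDR of 1 according to the authors' deposited table, adjusted p of 0.867 by the quasi-binomial model). The sets overlapped in both events. Skipping of the whole pair was seen in 0 and 0 reads of the first set and 3 and 5 of the second. The sets did not overlap in the events that use these reads, whose limma p of 0.0371 and 0.0471 became 0.955 after adjustment. The tested 93-nt, 99-nt and 50-nt exons of U2AF1 were skipped in at most 5 reads per library. Release 29 also lists a copy of the gene, U2AF1L5, with 0 rows in the table, and reads of near-identical copies may be split or lost in counting.

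U2AF2 (ENSG00000063244, plus strand of chromosome 19) had 6 events, all near full inclusion or full skipping. The sequences of 3 of its exons are printed because they carry its alternatives. The 120-nt exon at chr19:56170228-56170347 belongs to the nonsense-mediated decay transcript U2AF2-203, and its stop codon, after 107 coding bases, is in capitals. The 45-nt exon at chr19:56171543-56171587 is coding and a multiple of 3 in length. The 99-nt exon at chr19:56180449-56180547 is an 87-nt exon with the 12 bases in capitals added at its 3′ end.
U2AF2 120-nt exon: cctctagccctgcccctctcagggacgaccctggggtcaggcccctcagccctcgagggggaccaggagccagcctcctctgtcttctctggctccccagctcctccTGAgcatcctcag
U2AF2 45-nt exon: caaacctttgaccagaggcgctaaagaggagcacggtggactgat
U2AF2 99-nt exon: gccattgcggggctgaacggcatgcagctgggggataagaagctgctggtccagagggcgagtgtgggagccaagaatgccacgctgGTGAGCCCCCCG

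The 120-nt exon, which carries the stop codon, was kept in 55, 40, 13 and 30 reads and skipped in 4225, 3968, 3524 and 4088. Its level was 0.716% (0.550 to 0.931%) and 0.555% (0.408 to 0.756%) in the first set's libraries, then 0.204% (0.119 to 0.349%) and 0.405% (0.284 to 0.578%). The sets did not overlap, but the interval of library 2 of the second set reached into both intervals of the first. The difference was 0.00331, for which the authors' deposited table gave an FDR of 1. By the quasi-binomial model the p of 0.0382 became 0.867 after adjustment.

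The 45-nt coding exon was skipped in 45, 47, 36 and 34 reads and kept in 5046, 4862, 4461 and 4603. Its level of 0.989, 0.988, 0.990 and 0.990 differed by -0.00199 between sets, at an FDR of 1 by the authors' deposited table. A 64-nt exon at 56173137 to 56173200 was kept in only 18, 16, 21 and 7 reads, or 0.423%, 0.416%, 0.548% and 0.163%. Library 2 of the second set was lowest and library 1 of that set highest, so the sets overlapped. The 87-nt and 99-nt forms were both compared with skipping, which had at most 6 reads per library, so the choice between them cannot be read from these events.

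PUF60 (ENSG00000179950, minus strand of chromosome 8) had 3 partly included events, of exons whose lengths are multiples of 3. The 51-nt exon at 144902836 to 144902886 was kept in 1619, 1595, 1513 and 2005 reads and skipped in 693, 789, 691 and 934. Its level was 0.635 (0.614 to 0.655) and 0.601 (0.580 to 0.621) in the first set's libraries, then 0.620 (0.599 to 0.641) and 0.615 (0.597 to 0.633). The second set lay inside the range of the first. The difference was 0.000419, at an FDR of 1 by the authors' deposited table and an adjusted p of 0.994 by the quasi-binomial model.

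Nearer the 5′ end, a PUF60 exon occurred in an 87-nt and an 84-nt form that begin at different acceptors. The 87-nt form at 144906483 to 144906569 stood at 0.668 (0.642 to 0.693) and 0.710 (0.686 to 0.733), then 0.706 (0.681 to 0.729) and 0.706 (0.681 to 0.731). The 84-nt form stood at 0.607, 0.655, 0.642 and 0.639. Both events have the same skipping reads, 369, 366, 358 and 340, and in both library 1 of the first set was lowest while the second set lay inside the range of the first. Their differences were -0.0171 and -0.00924, each at an FDR of 1 by the authors' deposited table, with adjusted p of 0.867 and 0.913 by the quasi-binomial model. A 152-nt exon farther upstream was kept in 6, 16, 16 and 15 reads, or 0.829%, 1.84%, 1.66% and 1.73%. In another event of that exon the mean was 15.5 reads, just under the minimum, and the difference of -0.0603 had an FDR of 1 by the authors' deposited table.

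**Figure D2:**
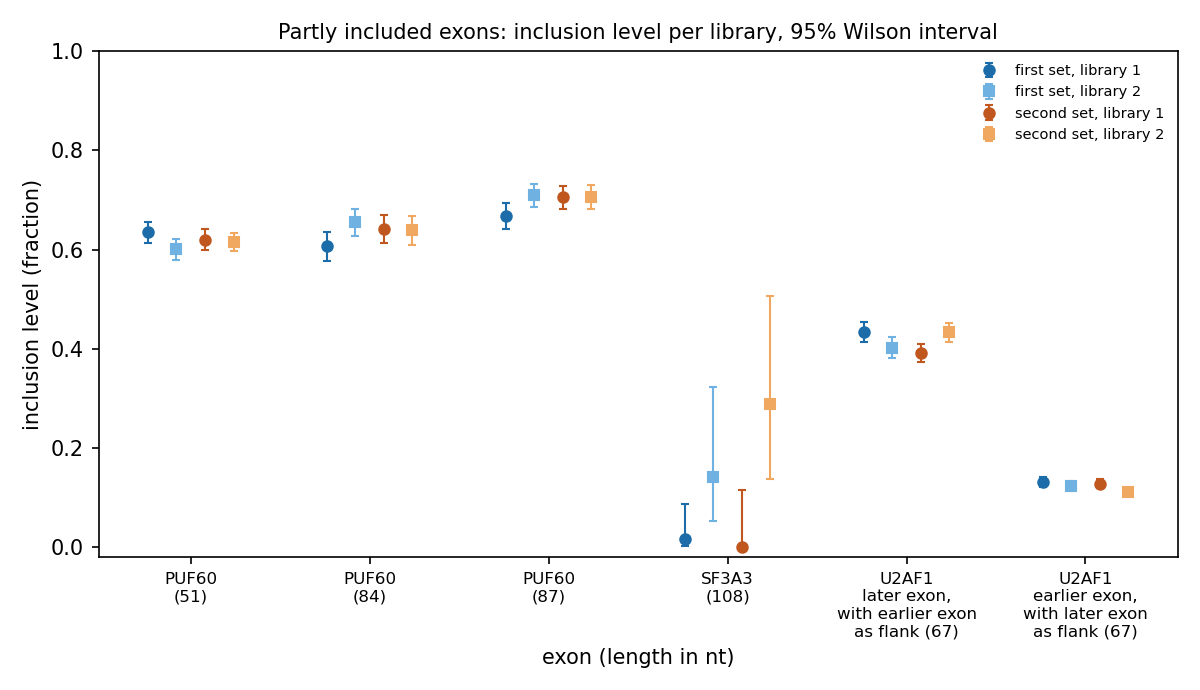
Inclusion level (y axis, fraction) in the 6 events with a mean level between 0.05 and 0.95, per library with its 95% Wilson interval (x axis, exon and length). The SF3A3 exon and both U2AF1 exons have mean levels above 0.95 in their other events, which have other flanking exons. The sets overlap in all 6, and the SF3A3 exon, with 17 to 36 reads per library, has the widest intervals.

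Of the SF3A complex, SF3A1 and SF3A3 were measured. SF3A1 had events at a 208-nt and a 118-nt exon of chromosome 22, each skipped in a single read of 1 library beside 1165 to 1734 inclusion reads. The larger difference, at the 118-nt exon at 30736684 to 30736801, was 0.000768, at an FDR of 1 by the authors' deposited table.

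SF3A3 had 13 events on 8 exons of chromosome 1. The shallowest of all 70 events, with a mean of 22 reads and the largest difference, was at its 108-nt exon at 38444392 to 38444499. There the exon was kept in 1, 4, 0 and 7 reads and skipped in 35, 14, 17 and 10. The level was 0.0163 (0.00286 to 0.0874) and 0.142 (0.0542 to 0.324), then 0 (0 to 0.116) and 0.289 (0.138 to 0.507). Library 2 was above library 1 in each set, and the sets overlapped. The difference was -0.0651, at an FDR of 0.967 by the authors' deposited table and an adjusted p of 0.867 by the quasi-binomial model, and turned to 0.0792 without library 2 of the second set. In its other events, with means of 927.5 and 1945.75 reads, the same exon was kept almost always, with differences of 0.0113 and 0.00382.

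The skipping reads of that event recur in an event of the neighbouring 70-nt exon of SF3A3 at 38442556 to 38442625. Its level was 0.924 (0.897 to 0.945) and 0.962 (0.938 to 0.977), then 0.958 (0.935 to 0.974) and 0.974 (0.953 to 0.986). Only library 1 of the first set was low, and the sets overlapped. The authors' deposited table gave a p of 0.0234 and an FDR of 0.198.

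SF3B3, a scaffold subunit of the SF3B complex, held both events with an FDR under 0.05 in the authors' deposited table. They are rarely included exons with a higher level in the first set. The 29-nt exon at chr16:70584553-70584581 (ENSG00000189091, plus strand) is exon 4 of the nonsense-mediated decay transcript SF3B3-209. It is printed because it carries a stop codon, in capitals, after 8 coding bases.
SF3B3 29-nt exon: gtggctggTGAaggtgctgatcaccacag
The exon was kept in 39, 38, 13 and 8 reads and skipped in 852, 771, 514 and 501. Its level was 3.69% (2.71 to 5.01%) and 3.96% (2.90 to 5.40%) in the first set's libraries, then 2.07% (1.21 to 3.52%) and 1.32% (0.669 to 2.58%). The sets did not overlap, while the interval of library 1 of the second set reached into those of the first. The difference was 0.0213, at an FDR of 0.017 by the authors' deposited table. It did not pass by the quasi-binomial model (p of 0.0679, 0.867 adjusted) or by limma (0.955 adjusted), and leaving out each library in turn gave 0.0175 to 0.0251.

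The other event was at a 154-nt exon of SF3B3 at 70558767 to 70558920, near the 5′ end of the gene, which has no coding bases in transcript SF3B3-207. It was kept in 65, 32, 12 and 0 reads and skipped in 1214, 845, 526 and 462. Its level was 2.61% (2.04 to 3.32%) and 1.86% (1.32 to 2.62%) in the first set's libraries, then 1.13% (0.644 to 1.97%) and 0% (0 to 0.414%). The sets did not overlap, and the 0 of 462 reads in library 2 of the second set allows a share of reads up to 0.649%. The difference was 0.0167, at an FDR of 0.00155 by the authors' deposited table. By the quasi-binomial model the p of 0.00809 became 0.867 after adjustment, and limma gave 0.955 adjusted. Without library 2 of the second set the difference was 0.011. Without library 1 of that set it was 0.0223, and the quasi-binomial adjusted p was 0.0158. That fit sets the first set against library 2 of the second set alone, the library that stands apart, and assumes that this lone library varies like those of the first set and of other events. At the 29-nt and 154-nt exons the second set also had fewer reads, with log2 ratios of 0.88 and 1.27 between first and second set per 1000000 junction reads, and the part of read coverage in these differences was not tested. The remaining 22 events of SF3B3 were at exons kept in nearly every mRNA.

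SF3B1, the subunit that holds the helix of U2 RNA and branch site, had 6 tested events (ENSG00000115524, minus strand of chromosome 2). Its 56-nt exon at 198283620 to 198283675 also carries a stop codon, with 17 coding bases, in transcript SF3B1-202, annotated as protein coding. It was kept in 8, 4, 3 and 0 reads and skipped in 789, 508, 200 and 219. The level of 0.732%, 0.569%, 1.08% and 0% overlapped between sets, and the 0 of 219 reads allows a share of up to 1.37%. The largest difference among its tested events, -0.00654, was at the coding 167-nt exon at 198288532 to 198288698, kept in 1506, 1032, 396 and 566 reads. Skipping had 7, 2, 0 and 0 reads, so the levels of 0.991, 0.996, 1 and 1 did not overlap, at an FDR of 1 by the authors' deposited table.

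The same numbers of skipping reads appear for an 81-nt form of that SF3B1 exon (198288618 to 198288698), whose mean of 13.25 reads is under the minimum. There the exon was kept in only 13, 13, 6 and 12 reads, which put the level at 0.546, 0.808, 1 and 1. The difference became -0.323, or -0.192 without library 1 of the first set and -0.454 without library 2 of that set, at an FDR of 0.00129 by the authors' deposited table, so a minimum of 10 reads would raise the count of called events from 0 to 1. SF3B2, which contacts the RNA near the branch site, had 4 exons on chromosome 11, each skipped in at most 5 reads per library beside 1147 to 3617 inclusion reads. Its largest difference, at the 108-nt exon at 65829362 to 65829469, was -0.0029, from 2, 2, 0 and 0 skipping reads.

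**Figure D3:**
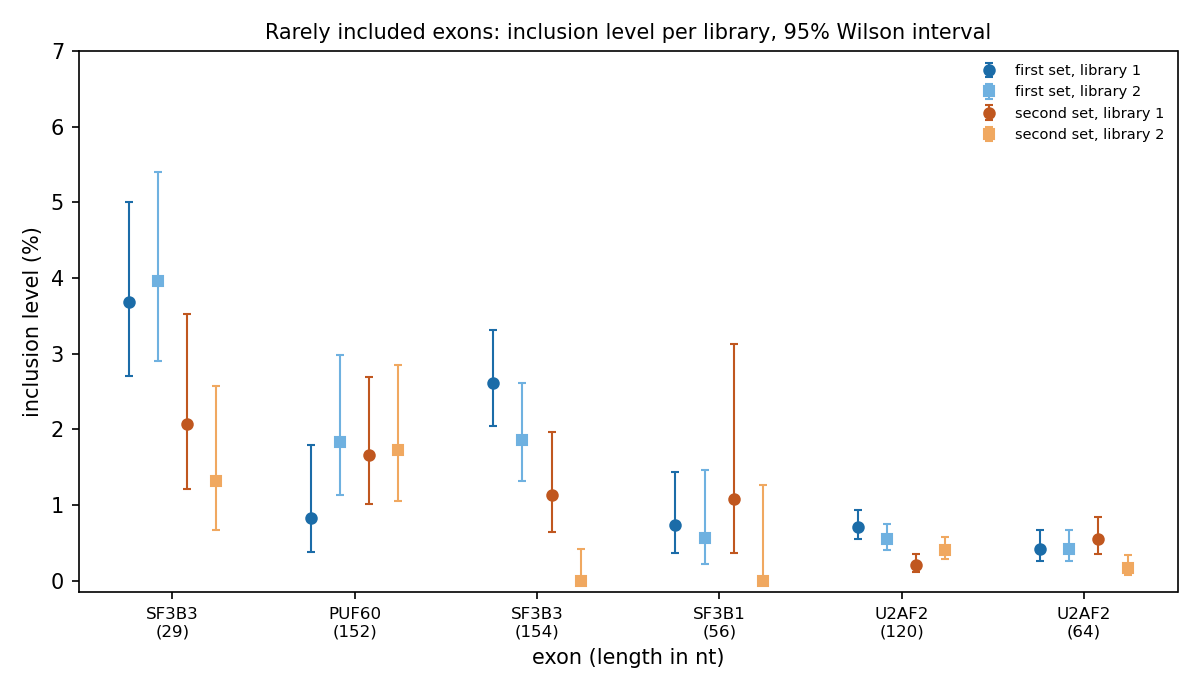
Inclusion level (y axis, %) of the 6 exons with a mean level under 0.05, per library with its 95% Wilson interval (x axis, exon and length). The first set is above the second in both libraries for the 29-nt and 154-nt exons of SF3B3 and the 120-nt exon of U2AF2, and the sets overlap for the other 3.

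Counted over the group, 7 of the 70 events, on these 6 rarely included exons, had a mean level under 0.05. The first set was higher in 6 of the 7, with a median difference of 0.331 percentage points, as it was in 62.4% of the 5068 such events of the series. The 152-nt PUF60 exon counts in both directions, at 0.00633 in an event with a mean of 104 reads and -0.00359 in one with 434.5. Without library 2 of the second set, the differences turned to -0.00428 at the 56-nt SF3B1 exon and -0.00129 at the 64-nt U2AF2 exon. Levels of the sets did not overlap in 16 of the 70 events, or 22.9%, equal to the background of 22.9%. Of these, 12 differed by less than 0.01.

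The number of junction reads on some of these genes differed between sets. Per 1000000 junction reads, the tested events of SF3B1 had 285, 224, 136 and 138 reads, a ratio of 1.86 between first and second set. SF3A1 had 87, 78.5, 59.5 and 57.4, a ratio of 1.42, and SF3B3 had 1027, 937, 697 and 711, a ratio of 1.39. The first set was above the second in both libraries for these genes and for U2AF2, with 561, 539, 489 and 519 reads and a ratio of 1.09. U2AF1, with 608, 659, 830 and 681 and a ratio of 0.838, was higher in the second set, again without overlap. The sets overlapped for SF3A3, SF3B2 and PUF60, whose ratios were 1.01, 1.05 and 0.984. Events of a gene share reads and lie in different parts of it, so these sums are not expression levels, and with bulk RNA fewer cells with a transcript and less of it per cell cannot be told apart.

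In SF3B1 and SF3B3 the first set's excess of reads was absent at the 3′ end of the gene. At the SF3B1 exon nearest that end, of 217 nt, libraries had 2833, 2870, 3173 and 3181 reads, a log2 ratio of 0.005 per 1000000 reads. At its 238-nt exon, farther upstream, they had 2032, 1380, 515 and 568, a log2 ratio of 1.82. At the SF3B3 exon nearest the 3′ end, of 105 nt, they had 2677, 2816, 3208 and 3284, a log2 ratio of -0.08, and at the 5′-most exon, of 154 nt, 1279, 877, 538 and 462, a log2 ratio of 1.27.

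Across exons, Spearman's rho between this ratio and the distance from the 3′ end was 0.936 over the 18 exons of SF3B3 and 0.429 over the 6 of SF3B1, as a description of exons that share libraries. The ratio at the 5′-most exon exceeded that at the 3′-most exon in each of the 6 genes with at least 5 exons of 200 or more reads. The excess was 1.565 in SF3B1, 1.35 in SF3B3, 0.58 in SF3A3, 0.39 in U2AF2, 0.19 in PUF60 and 0.13 in U2AF1 on the log2 scale. Most genes showed the same sign: 88.5% of 1863 genes of the series, with a median of 0.38 and quartiles of 0.14 and 0.69.

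**Figure D4:**
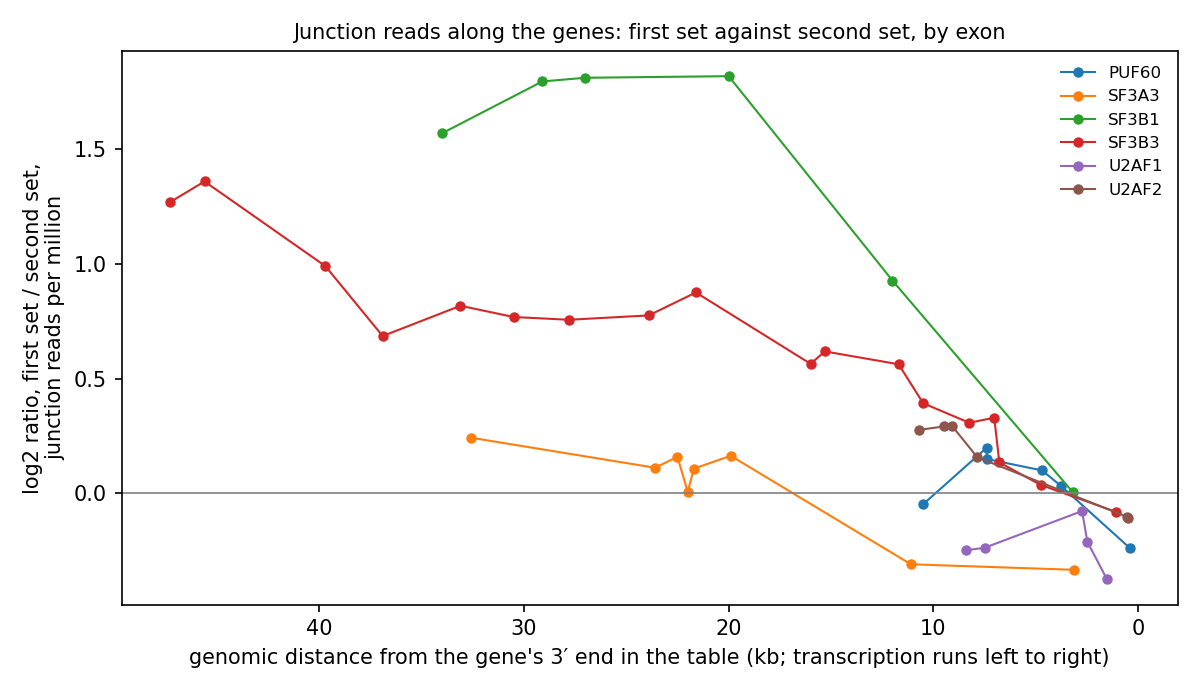
Log2 ratio of junction reads, first set over second set after scaling to each library's sum over all events (y axis), for each exon against its genomic distance in kb from the 3′ end of its gene (x axis, transcription from left to right), in 6 genes. SF3B1 and SF3B3 go from 0.005 and -0.08 at the 3′-most exon to 1.57 and 1.27 at the 5′-most exon, while the other 4 genes lie between -0.38 and 0.29.

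Other genes of U2 snRNP and 3′ splice site recognition, from a list of 20, gave 77 tested events in 18 genes. The called ones numbered 1, where 2.71% of all events were called, and 4 had an FDR under 0.05 according to the authors' deposited table, where 5.72% of all did. The quasi-binomial model gave 0 after adjustment and 5 at an unadjusted p under 0.05, and limma gave 0 and 0. The called event was a 191-nt exon of U2AF1L4, a relative of U2AF1, at 36234056 to 36234246 on chromosome 19. It was kept in 32, 27, 27 and 4 reads and skipped in 77, 50, 76 and 91, so its level was 17.2% (12.1 to 23.8%), 21.3% (14.5 to 30%), 15.1% (10.3 to 21.5%) and 2.15% (0.832 to 5.45%). The sets did not overlap, with library 2 of the second set far below the rest. The difference was 0.106, at an FDR of 0.0217 by the authors' deposited table and an adjusted p of 0.867 by the quasi-binomial model, and was 0.0415 without that library.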

How the data were processed

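The labels' protocols state poly(A) selection and paired reads of 150 bases; the submitters' processing notes name cutadapt, STAR and hg19. Per the file headers, the deposited table has the layout of rMATS for skipped exons. It holds counts of inclusion and skipping junction reads, inclusion levels as a fraction, their difference as a score (first set minus second), and the authors' p-value and FDR. Recomputed differences were within 0.00137 of the deposited ones.

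All events with a mean of at least 20 reads were fitted by a quasi-binomial model and by limma 3.58.1 in R 4.3.3 (log2 ratio of inclusion to skipping reads, pseudocount 0.5, trend), with Benjamini-Hochberg adjustment over all of them. The quasi-binomial dispersion, never under 1, was first moderated over all events. That version recovered none of the differences put into simulated data and called nothing in the deposited table. The prior was then taken from events with a mean level between 0.05 and 0.95, after those results were known, which raised the count over all tested events to 1 and left the members at 0. This final version recovered most of the simulated differences without added scatter between libraries, but hardly any with it. Limma recovered none in either case.

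Exons were matched to GENCODE 29 (GRCh38) by length and spacing (50 of the 70 events), and sequences come from its transcripts; no position was converted between builds. The naming rule took called events, other events with a mean level between 0.05 and 0.95, and otherwise the largest difference of each gene. The other rarely included exons, the 45-nt and 87-nt or 99-nt exons of U2AF2, the 70-nt exon of SF3A3, the 81-nt form in SF3B1, the sides of the U2AF1 pair and the read ratios along genes were chosen after their values were seen. The members and lists were chosen with earlier results of these data known.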

Additional observations from a re-analysis of the deposited data

How the results depend on the processing

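A mean of at least 50 reads, a difference of at least 0.2, an FDR under 0.01 and 1 event per exon only narrow the rule. They could not raise the count of 0 called events among the 70. That count was also 0 at a difference of at least 0.05 and with adjustment over tested events only. It was 1, the 81-nt form in SF3B1, at a mean of at least 10 reads and 1 with no minimum. With each library left out in turn, the deposited FDR kept and the difference recomputed, the count was 0 to 0. Only the 2 SF3B3 events had an FDR under 0.05, at levels under 0.05 in every library, so this count could not rise. The quasi-binomial count was 0 at the other read minimums and by limma with either pseudocount, and 0 to 1 with each library left out. For the other U2 genes the 1 called event became 0 at a difference of at least 0.2. The U2AF1 share difference of -0.611 points was -0.476 with all events of each exon and ranged from -1.79 to 0.563 with each library left out, so its sign rests on library 2 of the second set. Of 107 recomputed differences of single exons, 103 moved by no more than the SD between libraries and 15 changed sign or became 0. Without division by form length the difference was 0.00593 for the 120-nt U2AF2 exon, -0.00169 for the 108-nt SF3B2 exon and 0.0325 for the 154-nt SF3B3 exon, and another event of the 152-nt PUF60 exon gave 0.00633. No paired analysis was possible because the table's columns carry no replicate numbers.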
